A study of Mus musculus with 12 samples.

Results

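Peak calls of BRD2 and BRD3, bromodomain proteins that bind acetylated histones, were followed at 6 genes of the MYC and MAX network, Myc, Max, Mxd1, Mxi1, Mnt and Mlx, out of 21887 protein-coding genes. The 6 genes were listed by name as a family, and a region of a peak list was assigned to a gene when it overlapped the gene record, or the 10 kb beyond either end, by at least 1 bp. Around Myc all regions within 500 kb were also taken. The data are chromatin immunoprecipitation and sequencing (ChIP-seq) of RAW264.7 cells, a mouse monocyte-derived line that can be driven towards osteoclasts. Cells of each antibody had RANKL (50 ng/ml) with I-BET (500 nM) for 4 h, RANKL alone for 4 h, I-BET alone for 4 h, or no treatment. RANKL is the cytokine that sets monocytes on the way to osteoclasts, and I-BET is an inhibitor that occupies the bromodomains of the BET proteins. All libraries come from this 1 line, with 1 library per antibody and treatment, so no difference between lists has a replicate error or a test.

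MYC is a transcription factor of the basic helix-loop-helix leucine zipper type that binds DNA only when paired with MAX, preferring the E-box CACGTG. MAX also pairs with MXD1, MXI1 and MNT, which occupy the same E-boxes and bring the SIN3 co-repressors with their histone deacetylases. MLX is a MAX-like partner of the glucose-sensing MondoA and ChREBP proteins and also pairs with MXD1 and MNT. The Myc gene is a well-known target of BET inhibitors in blood cancer cells, where distant enhancers in the large gene-poor stretch around it carry much of the BET protein.

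The sequences of 4 annotated starts are shown because the results turn on which of them lay under a BRD3 region. Each runs 5′ to 3′ in the direction of the gene, from 250 bases before a RefSeq transcription start to 50 after it (RefSeq, GRCm38.p6). Capitals mark the E-box CACGTG, and the letters ACTACANNT, part of a ZNF143-type motif, on either strand. The Max window is chr12:76962199-76962498 on the minus strand, the Mlx window chr11:101087040-101087339 on the plus strand, the window of the second Mxi1 start chr19:53329163-53329462 on the plus strand and the Mnt window chr11:74830674-74830973 on the plus strand.
Max: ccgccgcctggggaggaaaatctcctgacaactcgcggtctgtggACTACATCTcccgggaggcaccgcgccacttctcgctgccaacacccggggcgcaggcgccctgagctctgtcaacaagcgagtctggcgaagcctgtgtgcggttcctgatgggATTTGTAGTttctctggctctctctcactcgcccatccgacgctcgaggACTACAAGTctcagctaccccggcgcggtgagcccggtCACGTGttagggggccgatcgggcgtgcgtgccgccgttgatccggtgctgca
Mlx: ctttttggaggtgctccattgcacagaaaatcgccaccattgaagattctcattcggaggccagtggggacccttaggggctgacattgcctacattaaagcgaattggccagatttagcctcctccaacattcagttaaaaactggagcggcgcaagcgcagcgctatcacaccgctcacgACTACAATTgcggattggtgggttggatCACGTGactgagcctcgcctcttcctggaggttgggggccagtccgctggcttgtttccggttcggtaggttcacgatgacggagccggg
Mxi1, second start: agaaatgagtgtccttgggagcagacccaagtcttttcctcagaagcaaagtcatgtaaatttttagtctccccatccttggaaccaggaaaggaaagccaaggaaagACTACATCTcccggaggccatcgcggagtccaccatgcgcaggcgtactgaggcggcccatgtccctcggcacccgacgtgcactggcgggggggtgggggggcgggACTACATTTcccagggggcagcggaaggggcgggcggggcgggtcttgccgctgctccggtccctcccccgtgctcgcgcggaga
Mnt: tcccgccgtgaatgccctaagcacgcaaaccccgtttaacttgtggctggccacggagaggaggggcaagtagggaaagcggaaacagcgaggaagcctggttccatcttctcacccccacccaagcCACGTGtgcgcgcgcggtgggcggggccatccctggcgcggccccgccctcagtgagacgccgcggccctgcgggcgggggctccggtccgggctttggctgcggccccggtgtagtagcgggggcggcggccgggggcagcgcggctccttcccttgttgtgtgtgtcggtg
The first 3 windows lay wholly under a BRD3 region in each treatment and the Mnt window under none. Among 17492 genes with an annotated start in the table, 11%, 12.5%, 9.3% and 13.2% had one inside a BRD3 region with RANKL and I-BET, RANKL, I-BET and no treatment. No member start lay inside a BRD2 region, where 0.686%, 5.33%, 3.34% and 2% of these genes had one. Myc has no entry in the promoter table.

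The E-box CACGTG stood 3 bases before the Max start, 40 before the Mlx start and 123 before the Mnt start. It was in neither the Mxd1 window nor any of the 3 Mxi1 windows. Of 21263 windows of the same length at protein-coding genes, 7.84% held CACGTG, searched on both strands, and of the 1377 windows whose start lay inside a BRD3 region in all 4 lists, 11.3% did. The looser CANNTG, which includes CACGTG, was in the windows of Max, Mlx and Mnt, in those of the first and the third Mxi1 start, and in 69.0% of all windows. The letters GGGCGGG, bound by SP and KLF factors, were in 33.9% of all windows, with 1, 4 and 3 matches at the first, the second and the third Mxi1 start, some of them overlapping, 3 each at Mxd1 and Mnt and none at Max or Mlx. None of the 7 windows held TGANTCA (AP-1), GAGGAAGT (PU.1) or CCGGAAG (ETS), which were in 6.99%, 3.13% and 11.6% of all windows. A match describes the letters and is not a measured binding site.

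The 8 peak lists differ in length. The BRD2 lists held 245 regions with RANKL and I-BET, 1716 with RANKL, 1067 with I-BET and 578 in untreated cells, and the BRD3 lists 2842, 3840, 2232 and 3668 in the same order. The lists give a position and the authors' score per region and no read counts, so the depth behind them is unknown. A score tended to run with that of the next region on the chromosome, with Spearman's rho between 0.250 and 0.610 over 225 to 3819 neighbouring pairs of a list, which share a library and a stretch of chromosome. It is therefore given only as a rank within its list. Of 7 macrophage markers used for a check of the cells, Spi1, Csf1r, Cd68, Lyz2 and Cebpa had a BRD3 region in untreated cells and Itgam and Adgre1 had none in any list. The Cd68 region also lies within 10 kb of Eif4a1, a widely expressed gene, and so says little of the cell type. None of 6 marker genes of other lineages had a region in any list.

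BRD3 was called at most of the 6 genes whatever the treatment, and less often at the 7 other MAX network genes described below. BRD2 was called at 1 or none of the 6 genes per list, in lists that called at most 10.5% of all genes. With BRD3, 5 of the 6 genes had a region with RANKL and I-BET (83.3%, exact 95% binomial interval 35.9% to 99.6%), and 4 of 6 (66.7%, 22.3% to 95.7%) did in each of the RANKL, I-BET and untreated lists. The share of all protein-coding genes with a region in the same window was 18.4%, 21.9%, 15.1% and 21.6% in these 4 lists. Max, Mxi1, Mnt and Mlx were the 4 genes with a region in every BRD3 list, which 12.1% of all genes had. With BRD2, Myc alone had a region under RANKL with I-BET and Mnt alone under RANKL, against 1.59% and 10.5% of all genes. Over all 8 lists 5 of the 6 members had a region, against 31.9% of all genes. No member had a BRD2 region under I-BET (0 of 6, exact interval 0.0% to 45.9%) or in untreated cells, where 6.41% and 3.64% of all genes did. The 6 genes are a fixed list, chosen with earlier results of these data known, and no random draw of genes. The intervals therefore show only how coarse a share of 6 genes is. They measure no error between genes or between libraries.

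**Figure D1:**
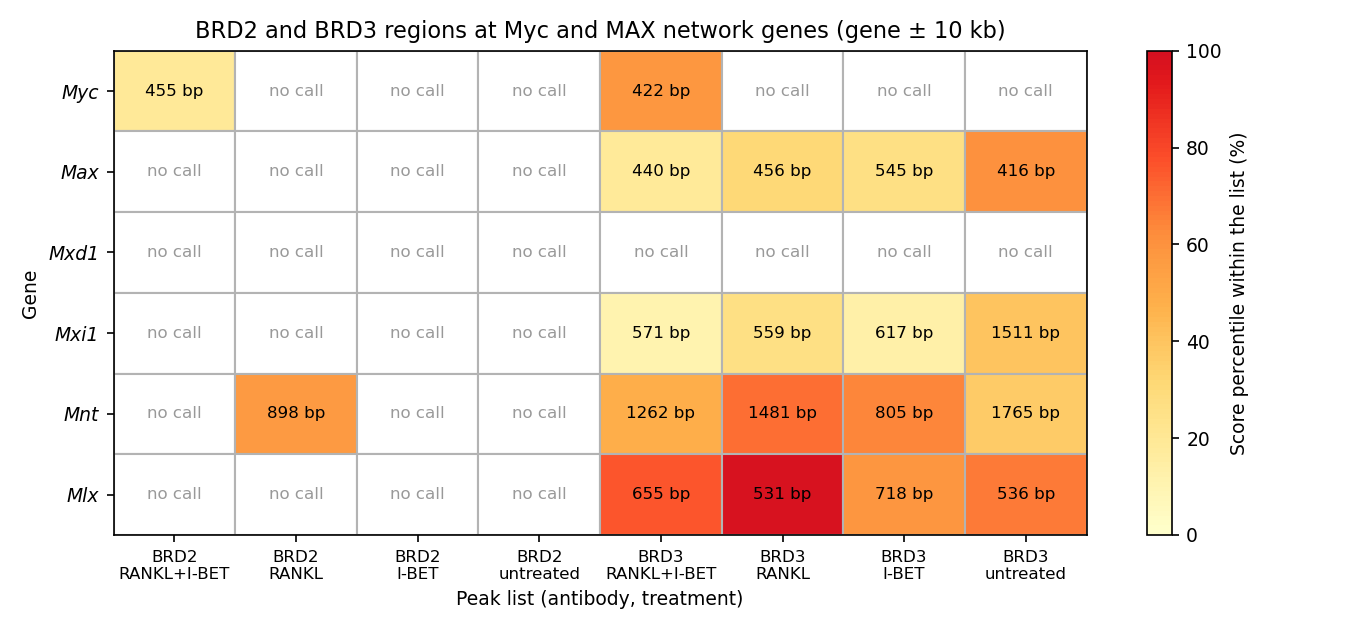
Regions at the 6 genes (rows) in the 8 peak lists (columns, antibody and treatment, 1 library each). A filled cell gives the width of the region in bp and its colour the percentile of its score within its list; the Max, Mxi1, Mnt and Mlx rows are filled in all 4 BRD3 columns, the Mxd1 row in none, and Myc in the 2 columns of RANKL with I-BET.

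Myc, which drives growth and proliferation genes, had a region only where RANKL and I-BET were given together, and there with both antibodies. The BRD2 region was chr15:61989509-61989963, 455 bp wide, and the BRD3 region chr15:61989493-61989914, 422 bp wide. They shared 406 bp, which is 89.2% of the BRD2 region and 96.2% of the BRD3 region. Both lay inside the gene record (chr15:61985341-61990361), beginning 4168 bp and 4152 bp from its lower-coordinate end and closing 398 bp and 447 bp from the other. Myc is transcribed towards higher coordinates, so the call sits in the 3′ part of the gene and away from its promoters; exon limits are not in the gene table used here. The BRD2 score stood at the 19.0th percentile of its list and the BRD3 score at the 58.4th, and the widths at percentiles 27.1 and 11.3, so both regions were narrow for their lists.

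Few genes had calls of this kind. The pattern counted here was taken from the calls of Myc itself, so its low share is a description and no test. It also needs a call in the shortest list, BRD2 with RANKL and I-BET, which only 1.59% of all genes had. With BRD3, 0.402% of all genes had a region with RANKL and I-BET and in no other BRD3 list, and with BRD2 0.187% had one in the same list alone. Exactly 2 genes of 21887 (0.00914%) had a region in both of these lists and in none of the other 6, Myc and the zinc finger gene Zfp961 on chromosome 8. Zfp961 had 426 bp of BRD3 and 605 bp of BRD2 region. As the only other gene with the same 8 calls, it necessarily came first by the rule used for naming genes most like Myc (summed width difference 154 bp). The next most alike, Fam83e and Spaca4 on chromosome 7, had the same call as Myc in 7 of 8 lists.

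The names of the joined regions tell something of the peaks that were not joined, and so of Myc in the lists without a call. Each region joins peaks from sets numbered 3, 5 and 7, and within each set the numbers rose along every chromosome with 0 out of order in any list. A jump in number between the regions on either side of a gene therefore counts peaks of that set that were left out of the joined list. With BRD3 under RANKL, no peak of set 3 or set 5 and 1 of set 7 was left out between a region 2337 kb below Myc and another 275 kb above it. With BRD3 under I-BET, 1, 2 and 2 peaks of the 3 sets were left out between 3161 kb below and 2007 kb above the gene. In untreated cells the counts were 0, 3 and 1 between 2336 kb below and 2008 kb above. At least 1 of the 3 sets had thus no peak at Myc under RANKL or in untreated cells; where the left-out peaks lay within these stretches is not given. In the BRD2 lists of RANKL, I-BET and untreated cells, 3 to 21 peaks of a set were left out of the stretches around Myc.

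Around Myc, the only further regions were 2 of BRD3 under RANKL, both far downstream of the gene. They lay at chr15:62265295-62267204 (1910 bp), 275 kb beyond the end of Myc, and at chr15:62389897-62392816 (2920 bp), 399.5 kb beyond it. Neither overlapped a gene record. The nearer one began 5.08 kb past the end of Pvt1, the long non-coding RNA gene that follows Myc, and the farther one 130 kb past it. Both were wide for the RANKL list, at the 90.8th and 96.5th percentiles of width, and low by score, at the 31.4th and 16.9th percentiles. No region of the other 7 lists overlapped either of them, so the BRD3 list of RANKL with I-BET held the region inside Myc and not these, and the RANKL list held these and not the region inside Myc.

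**Figure D2:**
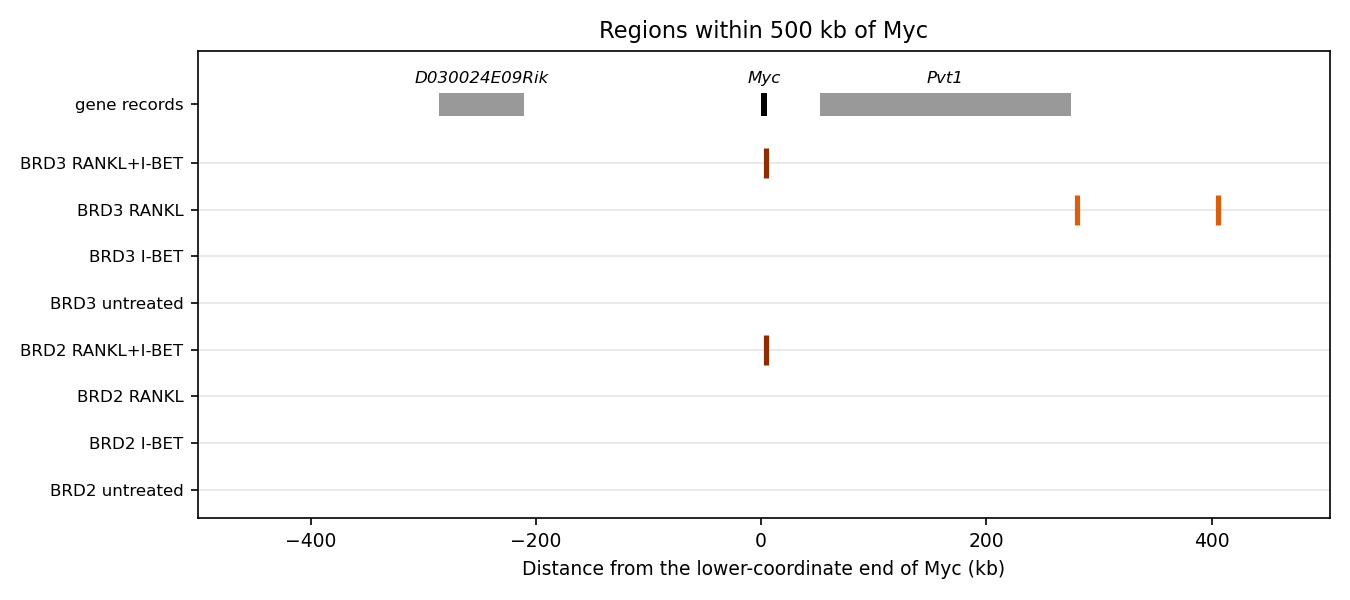
Regions within 500 kb of Myc in the 8 lists (rows), by distance in kb from the lower-coordinate end of the gene; each tick is the midpoint of a region and grey bars are the long non-coding gene records. Myc itself carries a tick in both lists of RANKL with I-BET, and the BRD3 list of RANKL has 2 ticks beyond the end of Pvt1.

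The number of regions within 500 kb of Myc is set here beside that of all genes. With RANKL and I-BET, RANKL, I-BET and no treatment, the BRD3 lists held 1, 2, 0 and 0 regions there, against medians over all genes of 2, 2, 1 and 2. The BRD2 lists held 1, 0, 0 and 0, against medians of 0, 1, 0 and 0. With RANKL and I-BET, 83.1% of all genes had no BRD2 region within 500 kb, where Myc had 1. In untreated cells 24.2% of all genes, Myc among them, had no BRD3 region within 500 kb.

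Max, the shared partner of the family, had a BRD3 region over its start in each treatment and no BRD2 region. It was 440 bp wide with RANKL and I-BET (chr12:76962158-76962597), 456 bp with RANKL, 545 bp with I-BET and 416 bp in untreated cells (chr12:76962163-76962578). The untreated region lay wholly inside the other 3, and starts and ends differed between lists by at most 38 bp and 91 bp. The score percentile was 18.4, 30.8, 26.0 and 60.9 in the same order, highest in untreated cells. In the BRD2 lists the nearest region to Max was 566 kb away under RANKL, and farther in each of the others.

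Mlx had a BRD3 region over its start in each treatment, and it stood higher by score than the other members in 3 of the 4 lists. Widths were 655 bp with RANKL and I-BET (chr11:101086787-101087441), 531 bp with RANKL, 718 bp with I-BET and 536 bp in untreated cells (chr11:101086879-101087414). The score percentile was 76.2, 98.5, 58.7 and 66.9 in that order, highest under RANKL; under I-BET alone Mnt ranked above it. The high rank under RANKL was not particular to Mlx, as the next region, 16.8 kb below, had nearly the same score. The one 32.1 kb above scored lower. With RANKL and I-BET the next region above scored higher than that of Mlx and the one below lower. The same Mlx region lies within 10 kb of Naglu, Hsd17b1, Coasy, Psmc3ip and Retreg3, and therefore counts for these genes as well.

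Mxi1, a MAX-binding repressor gene with 3 annotated starts, had its BRD3 region at the second of them. The first start, at position 53310506 of chromosome 19, lay in no region. The second, at 53329413, lay inside the region in each treatment. The third, at 53329695, was covered in untreated cells alone. The region was 571 bp wide with RANKL and I-BET (chr19:53329035-53329605), 559 bp with RANKL, 617 bp with I-BET and 1511 bp in untreated cells (chr19:53328205-53329715). The untreated region contained the other 3 and reached 1208 bp upstream of the second start, against 378 bp, 355 bp and 421 bp. By score Mxi1 ranked lowest of the called members with RANKL and I-BET, RANKL and I-BET, at percentiles 10.3, 26.1 and 12.7, and it stood at percentile 39.6 in untreated cells.

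Mnt, a repressor gene whose product opposes MYC at shared E-boxes, was the member with the widest BRD3 regions and the only one with BRD2 under RANKL. None of them covered its start at position 74830924 of chromosome 11. The BRD3 region lay inside the gene, 6442 bp to 8206 bp downstream of the start in untreated cells, and was 1262 bp wide with RANKL and I-BET (chr11:74837442-74838703), 1481 bp with RANKL, 805 bp with I-BET and 1765 bp in untreated cells (chr11:74837366-74839130). Each of the other 3 lay within the untreated one. Its score percentile was 48.8, 70.2, 64.2 and 36.8 in that order, so the widest region had the lowest rank. A region away from any annotated start was not unusual, since 63.1%, 53.8%, 67.4% and 58.8% of the regions of the 4 BRD3 lists covered one.

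The BRD2 region of Mnt under RANKL, chr11:74837971-74838868 (898 bp, 56.6th percentile of score), lay wholly within the BRD3 region of the same treatment, of which it made up 60.6%. With I-BET added to RANKL, BRD2 had no region at Mnt while BRD3 had one. Under I-BET alone no BRD2 peak of any of the 3 sets was left out between a region 59.8 kb below Mnt and another 51.9 kb above it. In untreated cells 3, 1 and 0 BRD2 peaks were left out between 2035 kb below and 307 kb above. With RANKL and I-BET the stretch was longer still and 9, 6 and 6 were left out, so a BRD2 peak of a set at Mnt in that list can be neither shown nor denied from the numbers. A BRD2 region under RANKL and in no other BRD2 list was found at 5.92% of all genes, and together with BRD3 regions in all 4 lists, as at Mnt, at 1.45%.

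**Figure D3:**
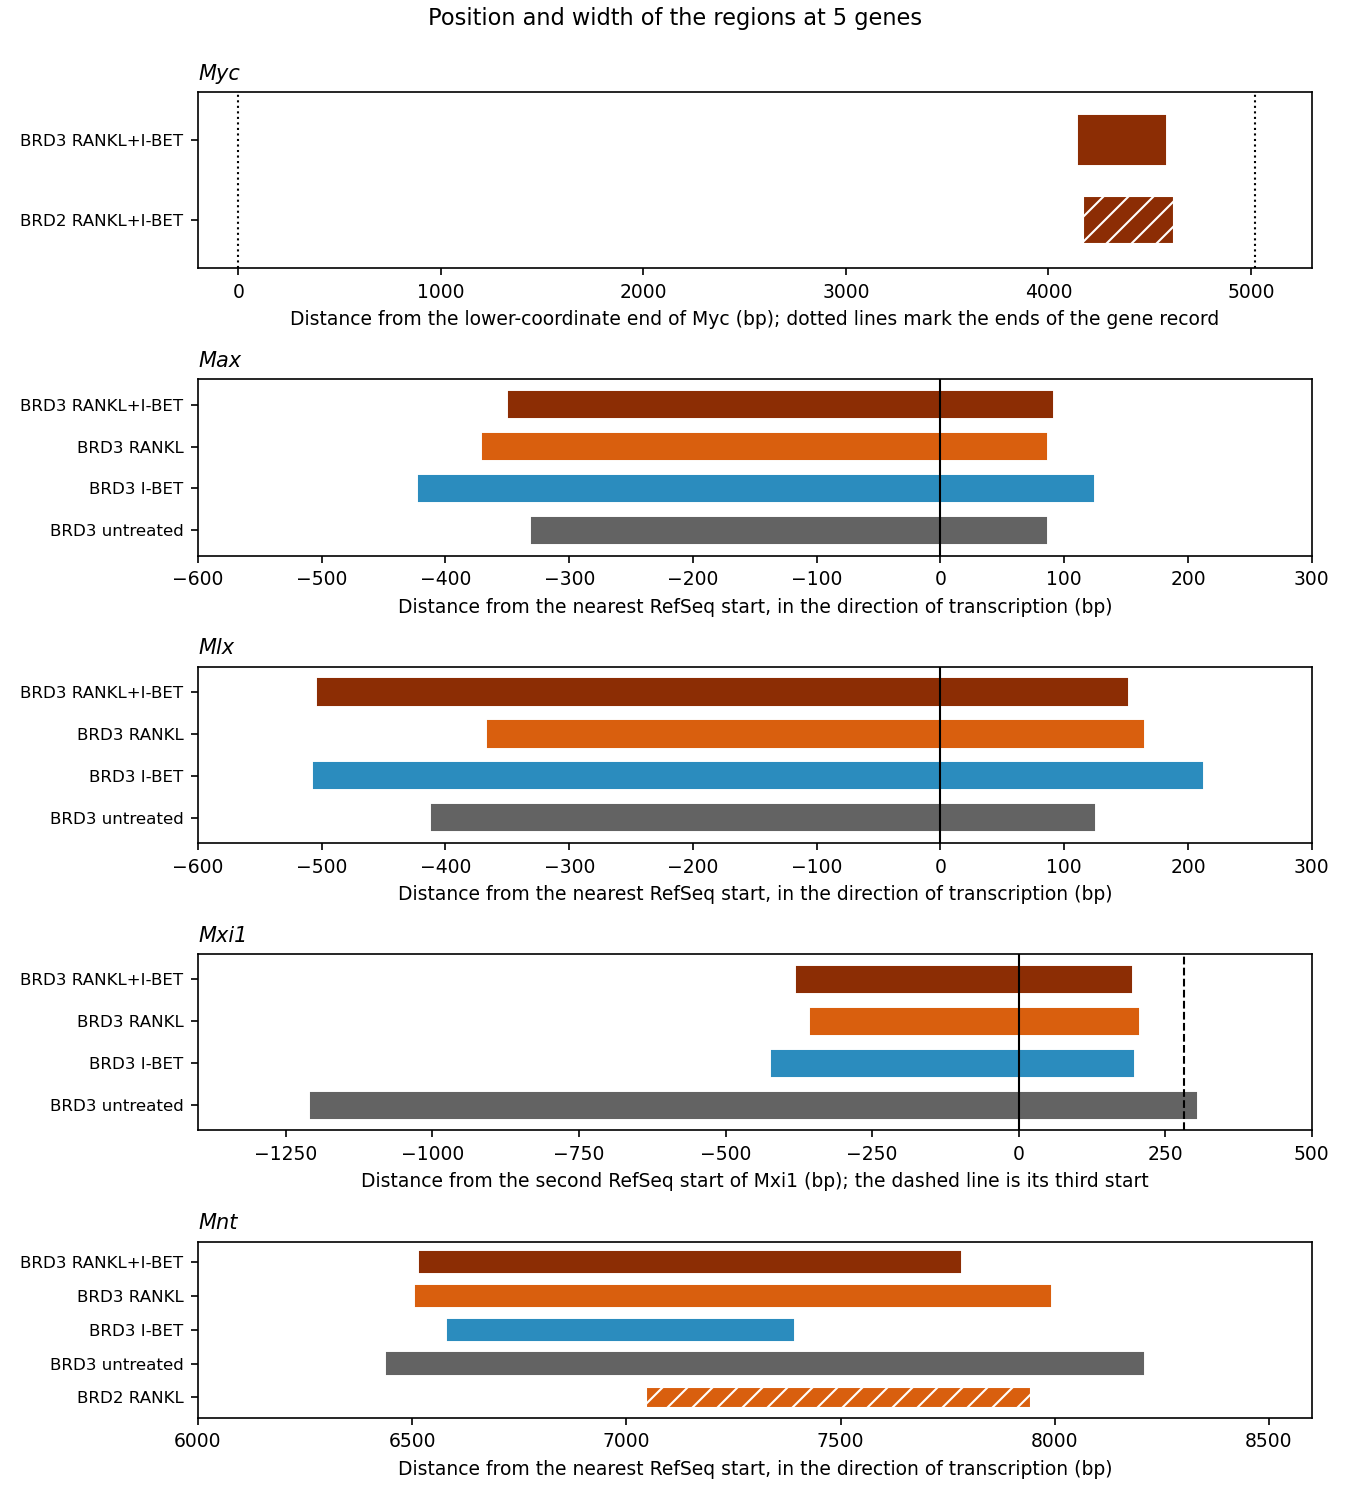
Position and width in bp of each region at the 5 genes with a call, 1 bar per list (hatched, BRD2), relative to the annotated start in the direction of transcription, or for Myc to its lower-coordinate end. Bars at Max, Mlx and Mxi1 cross the solid line of a start, bars at Mnt begin more than 6 kb downstream of one, and the bars at Myc lie near the far end of the gene record.

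Mxd1, a MAX partner gene known to rise as myeloid cells mature, had no region in any list, as did 68.1% of all genes. The nearest BRD3 region was 63.7 kb above the gene with RANKL and I-BET, 63.8 kb with RANKL, 63.6 kb with I-BET and 63.8 kb in untreated cells. No BRD3 peak of any set was left out around Mxd1 with RANKL and I-BET or with I-BET alone. Under RANKL 1 peak of set 3, and in untreated cells 1 of set 7, was left out of a stretch reaching from about 119 kb below the gene to that nearest region. At Mxd1, then, BRD3 was missing from the peak sets themselves in both lists with I-BET, and not only from the joined regions. The same held under RANKL for sets 5 and 7, and in untreated cells for sets 3 and 5. Where the 1 left-out peak of these lists lay is not given, so no contrast with I-BET can be read from it.

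Between treatments Max, Mxi1, Mnt and Mlx neither gained nor lost a BRD3 call, and the calls that differed were those of both antibodies at Myc and of BRD2 at Mnt. RANKL against untreated cells changed no BRD3 call at the 6 genes, where 4.33% of all genes had a region under RANKL alone and 4.06% in untreated cells alone. I-BET against untreated cells also changed none, where 1.67% had a region under I-BET alone and 8.2% in untreated cells alone. I-BET added to RANKL went with a BRD3 call at Myc (1 of 6, against 1.95% of all genes) and no lost call (5.38% of all genes). RANKL added to I-BET likewise went with Myc (4.13% of all genes) and no lost call (0.763%). Only a called gene can lose its call, so the shares of all genes understate loss. Of the 4724 genes with a BRD3 region in untreated cells, 888 had none under RANKL and 1794 none under I-BET. Of the 4783 with one under RANKL, 1177 had none with I-BET added. Of the 3295 with one under I-BET, 167 had none with RANKL added. With BRD2, RANKL against untreated cells gave a call at Mnt (8.37% of all genes) and no lost call (1.52%), and I-BET against untreated cells gave none in either direction (4.6% and 1.82%). I-BET added to RANKL went with a BRD2 call at Myc (0.507%) and without the one at Mnt (9.41%), and RANKL added to I-BET with the call at Myc (0.58%) and no lost call (5.4%). Of the 2297 genes with a BRD2 region under RANKL, 2059 had none with I-BET added, so the missing call at Mnt was common. A region in both lists of a pair was found for BRD3 at the same 4 members in every pair, against 17.5% of all genes for RANKL and untreated cells, 13.4% for I-BET and untreated cells, 16.5% for RANKL with I-BET and RANKL, and 14.3% for RANKL with I-BET and I-BET. For BRD2 no member had one, against 2.12%, 1.81%, 1.09% and 1.01% in the same order. The pairs of RANKL with I-BET against RANKL and against I-BET share the library of RANKL with I-BET, so the call at Myc in both is the same region.

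The width of the BRD3 regions changed unevenly over the 4 genes. I-BET against untreated cells left narrower regions at Mxi1 (0.408 of the untreated width) and Mnt (0.456), and wider ones at Max (1.31) and Mlx (1.34). Of 1952 untreated regions with an I-BET counterpart, 50.4% were narrower under I-BET, with a median ratio of 0.998, so 2 of 4 was the background share. The 4 genes lay near the edges of that spread on both sides, at percentiles 4.48 (Mxi1), 5.97 (Mnt), 92.1 (Max) and 93.0 (Mlx). RANKL against untreated cells left narrower regions at Mxi1 (0.370), Mnt (0.839) and Mlx (0.991) and a wider one at Max (1.10), where 47.4% of matched regions were narrower. The percentiles were 1.64 (Mxi1), 24.3 (Mnt), 46.0 (Mlx) and 65.3 (Max). Both low ratios at Mxi1 share its 1 wide untreated region (1511 bp).

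With I-BET added to RANKL, the ratio was 0.852 at Mnt, 0.965 at Max, 1.02 at Mxi1 and 1.23 at Mlx, and 66.5% of matched regions were narrower. With RANKL added to I-BET it was 0.807 at Max, 0.912 at Mlx, 0.925 at Mxi1 and 1.57 at Mnt, where 64.3% were narrower. In the order of genes given, the percentiles were 33.9, 58.4, 71.4 and 93.7 for I-BET added to RANKL. For RANKL added to I-BET they were 18.1, 40.6, 44.4 and 97.2. Mnt was thus wider in either list with RANKL than under I-BET alone, and widest without treatment. Summed over the members, BRD3 regions covered 3350 bp with RANKL and I-BET, Myc included, 3027 bp with RANKL, 2685 bp with I-BET and 4228 bp in untreated cells.

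**Figure D4:**
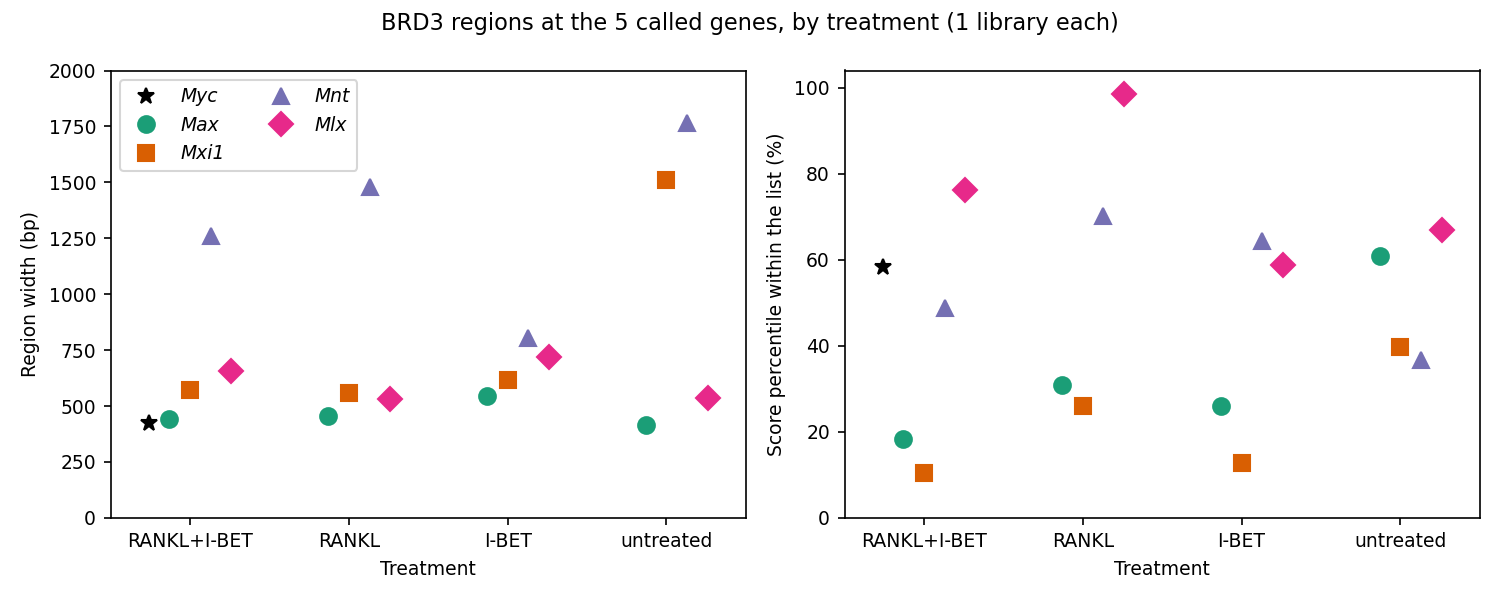
Width in bp (left) and score percentile within the list (right) of the BRD3 region at each of the 5 called genes, by treatment; each point is 1 region in 1 library and has no error. Mnt is the widest in every treatment and Mlx ranks highest by score in all but the I-BET list.

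The call patterns of the 4 genes with BRD3 throughout were each found at many other genes, though at a small share of all genes. Max, Mxi1 and Mlx shared theirs, BRD3 in all 4 lists and BRD2 in none, with 1801 other genes of 21887 in each case. The closest in covered length were Oat and Snx6 for Max (37 bp and 56 bp of summed difference over 8 lists) and Lgmn and Klf13 for Mxi1 (109 bp and 209 bp). For Mlx they were Coasy and Psmc3ip, which share its region. Mnt had the same 8 calls as 317 other genes, of which Ctbp1 and Crat were closest (841 bp and 988 bp). With Mnt included, these were 1.45% of all genes.

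Of 7 other genes of the MAX network, Mga, Mxd3 and Mxd4 had a BRD3 region in some list, and Mycn, Mycl, Mlxip and Mlxipl had none of either antibody. With RANKL and I-BET, RANKL, I-BET and no treatment, 2, 2, 1 and 3 of the 7 had one (28.6%, 28.6%, 14.3% and 42.9%). Of all genes 18.4%, 21.9%, 15.1% and 21.6% did. Mga, which codes for a MAX partner that also carries a T-box, had a BRD3 region over its start in each treatment, of 729 bp, 683 bp, 745 bp and 745 bp. The Mxd3 region lay just outside the gene, at chr13:55329904-55330407 in untreated cells, and was called with RANKL and I-BET and with RANKL but not under I-BET; it is also within 10 kb of Rab24 and Prelid1. The Mxd4 region was in the untreated list alone, at the 10.2th percentile of score, and overlapped no part of that gene. It is also within 10 kb of Poln and Haus3.

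Genes that MYC works with and genes it is known to activate are set beside the members here. Of 22 cofactor and turnover genes, 9, 11, 10 and 9 (40.9%, 50.0%, 45.5% and 40.9%) had a BRD3 region with RANKL and I-BET, RANKL, I-BET and no treatment. Wdr5, Kat2a, Zbtb17, Smarcb1, Ep400 and Bptf did in all 4, and Sin3a and Sin3b, which code for the co-repressors of the MXD family, in all but RANKL. Of 36 textbook target genes, 25, 25, 18 and 24 (69.4%, 69.4%, 50.0% and 66.7%) had a BRD3 region, among them Npm1, Ncl, Rcc1, Eif2s1 and Cdk4 in all 4. Of all genes 18.4%, 21.9%, 15.1% and 21.6% had one in these lists, below both the cofactors and the targets. The 6 members stood at 83.3%, 66.7%, 66.7% and 66.7%, so frequent BRD3 calls were not particular to them. Set against I-BET alone, RANKL with I-BET had a BRD3 call at 8 more target genes and lacked 1, Phb, where 4.13% of all genes had a call with both agents and not with I-BET and 0.763% the reverse. Most genes had no BRD3 region in either list, so these shares are low for a list as often called as the targets. Of the 4033 genes called with both agents, 905 lacked a call under I-BET, as did 8 of the 25 targets. Among the 8 were Tfrc, which codes for the transferrin receptor, Srm, Cad, Hspd1 and Rrp9. Hspe1 was another of the 8 and shares its region with Hspd1. Rrp9 and E2f1, also of the 8, were without a BRD3 region under RANKL too, as Myc was, but unlike Myc had one in untreated cells. BRD2 was called at 4, 9, 10 and 6 of the 36 targets, where 1.59%, 10.5%, 6.41% and 3.64% of all genes were called, and Nop56 and Eif4e were the 2 with BRD2 in all 4 lists. At the cofactors BRD2 was called at 0, 3, 2 and 1 genes (0.0%, 13.6%, 9.09% and 4.55%), close to those shares of all genes, and the genes were Ruvbl1, Sin3a, Huwe1 and Aurka. Phb, E2f1, Hspe1, Eif4a1, Nop56, Eif4e, Ruvbl1, Huwe1 and Aurka are named after their values were seen.

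**Figure D5:**
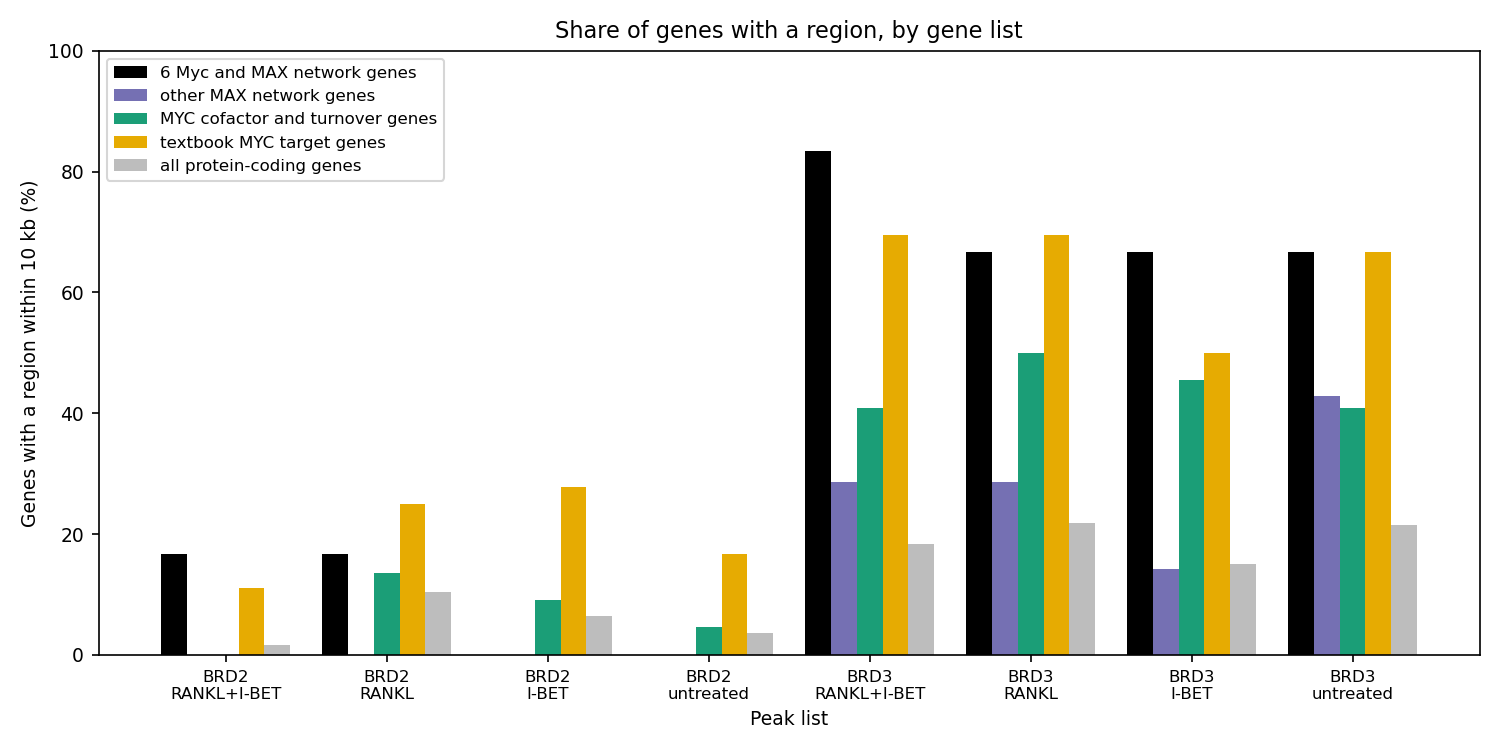
Share of genes (%) with a region in the gene or within 10 kb of it, for the 6 Myc and MAX network genes, 7 other MAX network genes, 22 MYC cofactor and turnover genes, 36 textbook MYC targets and all 21887 protein-coding genes, in each of the 8 lists. In the BRD3 lists the black bars stand at 66.7% or 83.3% and the bars of all genes between 15.1% and 21.9%.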

How the data were processed

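BRD2 and BRD3 ChIP-seq libraries of RAW264.7 cells were represented by 8 deposited peak lists; 4 input libraries have no list here and were not used. Per the submitters' processing notes, the tools were MACS2 2.1.1.20160309, Bowtie2 2.3.4.1 and FastQC, and the builds named were mm10 and GRCm38. Each deposited region carries a score set by the authors, nearly always joined from 3 peaks of sets numbered 3, 5 and 7, per the peak names in the files; the sources used here do not say what the sets are. The authors' other values are region starts and ends, printed here counted from 1.

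Gene positions and promoter sequences came from RefSeq GRCm38.p6 tables, the build of the lists; all 6 genes matched, 5 of them with a promoter window. Neither table gives exons. A gene was called in a list when a region overlapped the gene or the 10 kb beyond either end by at least 1 bp, and regions were matched between lists by an overlap of at least 1 bp. The code was checked on simulated regions. Python 3.11.15, NumPy 2.4.6 and SciPy 1.17.1 were used. Depth is unknown, and with 1 library per antibody and treatment no test was made.

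The members, the 5 gene lists and the motifs were chosen with earlier results of these data known. Named were all members, all 7 other MAX network genes, up to 10 genes of the cofactor and target lists with BRD3 in every treatment or gained as at Myc, by score, and up to 5 genes with the calls most like a member's. ACTACANNT was added after the promoter sequences were seen. Alternatives were other windows, region midpoints, the top 50% of each list, lists of equal length, regions of exactly 3 peaks, 250 kb and 1000 kb around Myc, and a 50% reciprocal overlap.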

Additional observations from a re-analysis of the deposited data

How the results depend on the processing

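No paired analysis was possible because each antibody and treatment has 1 library and the labels carry no replicate number. Of 244 alternative values, 217 were within 1.5 times of the reported one. These include counts of 0 that stayed at 0, so the share is no measure of how firm the calls are. Taking the gene alone, 1 kb, 5 kb or 25 kb beyond its ends, region midpoints, or only regions of exactly 3 peaks moved no count. Every member region joined exactly 3 peaks and overlapped its gene record. The narrower windows, the midpoints and the setting of exactly 3 peaks therefore had no member call to drop and did not test the calls. Settings that drop regions by score did move counts. In the top 50% of each list, members with a BRD3 region numbered 2 in each of the 4 lists, the BRD2 call at Myc was lost (0 members), while its BRD3 call was kept, and no region stayed within 500 kb of Myc for BRD2 with RANKL and I-BET or for BRD3 with RANKL (0 each). Between treatments this setting gave 1 BRD3 call under RANKL and 1 in untreated cells that the other lacked, 1 and 1 for I-BET and untreated cells, 1 under RANKL lacking with I-BET added, 1 under I-BET lacking with RANKL added, and 0 BRD2 calls gained with both agents. In lists of equal length by score, BRD3 members numbered 3 with RANKL and I-BET and 2 with RANKL. The BRD3 call at Myc was kept. The BRD2 call at Mnt was lost (0), after a cut from 1716 to 245 regions. The BRD2 call at Myc could not be lost, because its own library had the fewest BRD2 regions (245) and was left uncut. Its presence under this setting is therefore no test of it. For BRD3 the I-BET library set the length and was likewise uncut. At equal length, RANKL and untreated cells differed by 1 and 2 BRD3 members, and 1 member called under I-BET lacked a call in untreated cells. Another 2 calls made under I-BET were missing with both agents, and the 2 regions beyond Pvt1 were lost (0). Within 250 kb of Myc the RANKL list held 0 BRD3 regions. With a 50% reciprocal overlap, 2 in place of 4 member regions of the BRD3 I-BET list matched an untreated one, since those at Mxi1 and Mnt covered under 50% of the wider untreated regions. A score is no measure of depth, and the depth of every list is unknown.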

Other observations

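The window of the Max start held the letters ACTACANNT, searched on both strands, 3 times, beginning 205, 90 and 41 bases before the start. That of the second Mxi1 start held them 2 times, 142 and 35 bases before it, and that of Mlx once, 68 bases before it. The windows of Mnt and Mxd1 and those of the other Mxi1 starts held none. These letters are part of a motif known for the factor ZNF143, and they were picked after the sequences had been read. The windows with a match are the same 3 that lay under a BRD3 region in each treatment. Of 21263 windows, 4.65% held the letters, and of the 1377 windows whose start lay inside a BRD3 region in all 4 lists, 5.23% did, so over all genes the shares were close. The matches describe the sequence and say nothing of whether the factor was bound.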
